A study of Homo sapiens with 6 samples.

Results

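The genes described here are 36 protein-folding genes of the endoplasmic reticulum (ER), the cytosol and the mitochondria, chosen by symbol. All 36 of 36 symbols were found among the 23062 identifiers of the expression tables, and all 36 were among the 12359 genes tested. Of these 36 genes, 21 belong to the ER and its unfolded protein response, 11 are cytosolic heat shock proteins or their co-chaperones, 1 is the heat shock factor HSF1 and 3 are mitochondrial chaperones. RNA sequencing was performed on DU145 cells, an established line of human androgen-independent prostate cancer cells labelled as wild type. The 3 control samples received MEM medium for 48 h. The 3 TAX samples received taraxasterol, a plant triterpenoid, at the IC50 (56 µM) for 48 h. TAX was dissolved in DMSO, and the labels do not say whether the control medium held this solvent. All 6 samples were grown in MEM with serum and antibiotics, and all are of 1 line at 1 time and at most 1 dose. The comparison asks how gene expression of DU145 cells differed after TAX. Nothing in the labels says whether the 3 samples of a group were grown as separate cultures, so p-values measure only the spread between these samples. Values are in FPKM (fragments per kilobase of transcript, scaled to the size of the library), a measure of transcript abundance corrected for gene length. The unit is not written in the tables, and the number of reads behind a value is unknown.

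Chaperones bind proteins that have not yet folded and keep them from clumping. In the ER, the HSP70 protein BiP (HSPA5) and its partners fold secreted and membrane proteins, and an excess of unfolded proteins there activates the sensors IRE1 (ERN1), ATF6 and PERK, which raise the genes of ER chaperones through the factors XBP1, ATF6 and ATF4. In the cytosol, unfolded proteins free the factor HSF1, which raises HSP70, HSP40, HSP90 and small heat shock proteins. Cancer cells often carry high levels of both sets, and the DNA elements that the factors recognise lie close to the transcription start sites.

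These elements are shown for the members whose upstream sequence holds them, because they are the letters through which the ER and heat shock factors are known to act. The 250 bases before each RefSeq transcription start (assembly GRCh38.p14) were searched on both strands in 35116 windows of all genes, of which 46 belong to 34 members. The ER stress response element (ERSE, the letters CCAAT and CCACG with 9 free bases between them) was in 0.074% of all windows and in those of 7 members. Its second form (ERSE-II, ATTGG and CCACG with 1 free base between them) was in 0.0513% of all windows and in those of 3 members. Each run is written 5′ to 3′ on the strand that carries the element, with the fixed letters in capitals.
HSPA5 ERSE: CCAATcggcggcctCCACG
XBP1 ERSE: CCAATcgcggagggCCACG
CALR ERSE: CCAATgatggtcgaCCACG
PDIA6 ERSE: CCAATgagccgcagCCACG
CANX ERSE: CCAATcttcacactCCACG
CRELD2 ERSE: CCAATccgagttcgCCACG
HSP90B1 ERSE, gene strand: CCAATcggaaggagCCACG
HSP90B1 ERSE, other strand: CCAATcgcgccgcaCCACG
HERPUD1 ERSE-II: ATTGGgCCACG
SDF2L1 ERSE-II: ATTGGtCCACG
HYOU1 ERSE-II: ATTGGaCCACG

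All 10 members with either element are ER genes, and 0.125% of all windows hold either element, a share of windows and not of genes. The elements were picked because ER factors are known to act through them, so their presence in ER genes is no test. The HSPA5 element lies at chr9:125241391-125241409 on the minus strand, from 66 to 48 bases before the start. The HERPUD1 element lies at chr16:56932025-56932035 on the plus strand, and the XBP1 element at chr22:28800603-28800621 on the minus strand. HYOU1 holds ERSE-II at 2 places, and the one at chr11:119057380-119057390 overlaps the core of a further element (UPRE core, TGACGTGG), which is in 0.612% of all windows and in no other member. The windows of HSPA5 (chr9:125241344-125241593, minus strand) and HYOU1 (chr11:119057206-119057455, minus strand) are given whole, 5′ to 3′ on the gene strand, with each match in capitals. They are examples of ER members with 1 element and with several, and both windows lie outside the annotated gene.
HSPA5 window: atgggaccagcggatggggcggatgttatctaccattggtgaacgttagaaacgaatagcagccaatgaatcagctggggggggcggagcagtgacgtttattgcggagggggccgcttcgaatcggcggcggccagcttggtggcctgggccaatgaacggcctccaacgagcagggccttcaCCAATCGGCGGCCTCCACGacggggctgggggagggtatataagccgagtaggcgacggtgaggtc
HYOU1 window: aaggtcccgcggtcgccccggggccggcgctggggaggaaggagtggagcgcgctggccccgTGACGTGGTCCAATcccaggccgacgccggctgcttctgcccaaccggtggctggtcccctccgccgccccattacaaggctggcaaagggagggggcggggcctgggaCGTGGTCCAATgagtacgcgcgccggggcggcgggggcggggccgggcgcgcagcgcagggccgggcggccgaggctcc

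The heat shock element of 3 units (GAA, TTC and GAA, each 2 free bases apart) was in 0.441% of all windows and in those of 4 members, 3 cytosolic and 1 mitochondrial. The shorter form of 2 units (GAANNTTC or TTCNNGAA), which is contained in the longer form, was in 11.6% of all windows and in those of 10 members, among them HSPA1A, HSPA1B and DNAJB1 and also CANX of the ER. The runs below are again 5′ to 3′ with the fixed letters in capitals.
HSPA8 heat shock element, gene strand: GAAagTTCcaGAA
HSPA8 heat shock element, other strand: GAAccTTCcaGAA
HSP90AA1 heat shock element: GAAccTTCcgGAA
HSP90AB1 heat shock element, distal: GAAtcTTCcaGAA
HSP90AB1 heat shock element, proximal: GAAgcTTCcaGAA
HSPD1 heat shock element: GAAagTTCtgGAA
HSPA1A 2-unit element: GAAtaTTC
HSPA1B 2-unit element: GAAtaTTC

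HSPA1A and HSPA1B carry the same letters at chr6:31815437-31815444 and chr6:31827633-31827640. In HSPD1, a match on the other strand overlaps the one shown. A match is a description of letters and shows neither binding nor activity. PDIA3 and HSF1 had no entry in the sequence table.

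The 6 libraries summed to between 322483 and 363724 FPKM. Epithelial markers of DU145 were present in every library, with KRT8 between 126 and 173 FPKM and EPCAM between 55.0 and 66.2 FPKM, while KLK3, KLK2 and DCN were listed at 0 and PTPRC did not exceed 0.0069 FPKM. KRT18, KRT19, EPCAM and CD68 were above all controls in every TAX library and COL1A1, at 1.42 to 2.08 FPKM, below them, none with an adjusted p under 0.05 in limma, while KRT8 and CDH1 overlapped between the groups. Groups did not overlap in 17.9% of all genes tested. Control replicate 2 stands apart for the 36 members. It held the highest value in 23 of 36 members (63.9%), against 19.4% of all genes tested. Control replicate 3 held the lowest value in 25 of 36 members, against 58% of all genes tested, but in 11 of 36 both after each library was rescaled to the same FPKM sum and after centring on library medians. Results that rest on these 2 libraries are therefore given with and without them.

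No chaperone gene passed the test between TAX and control. At an adjusted p under 0.05 in limma on log2(FPKM + 1), 0 of 36 members were called, where 0.477% of all genes tested were. At an unadjusted p under 0.05, 0 of 36 members were called as well, where the share of all genes was 10.1%. The adjusted p of the members ranged from 0.535 to 0.991. The median log2 difference (TAX minus control) was 0.049 over the 36 members and 0.054 over all genes tested, with 23 members above 0 and 13 below, where 69.1% of all genes tested were above 0. Differences spanned -0.23 in HSPB1 to 0.38 in HERPUD1. A p above the threshold does not show that levels were equal, so intervals are given: the 95% interval of the difference lay within 1.5-fold in either direction in 32 of 36 members and in 96% of all genes tested. The exceptions were HERPUD1, HSPA1A, HSPA1B and DNAJB1, whose control values were far apart. The 3 TAX values and the 3 control values did not overlap in 2 members, DNAJC3 above and DNAJB11 below, and they did not overlap in 17.9% of all genes tested. Over all genes, 955 were higher and 298 lower at the unadjusted threshold, and this split became 745 against 715 with quantile normalization and 682 against 815 with centring on library medians.

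**Figure D1:**
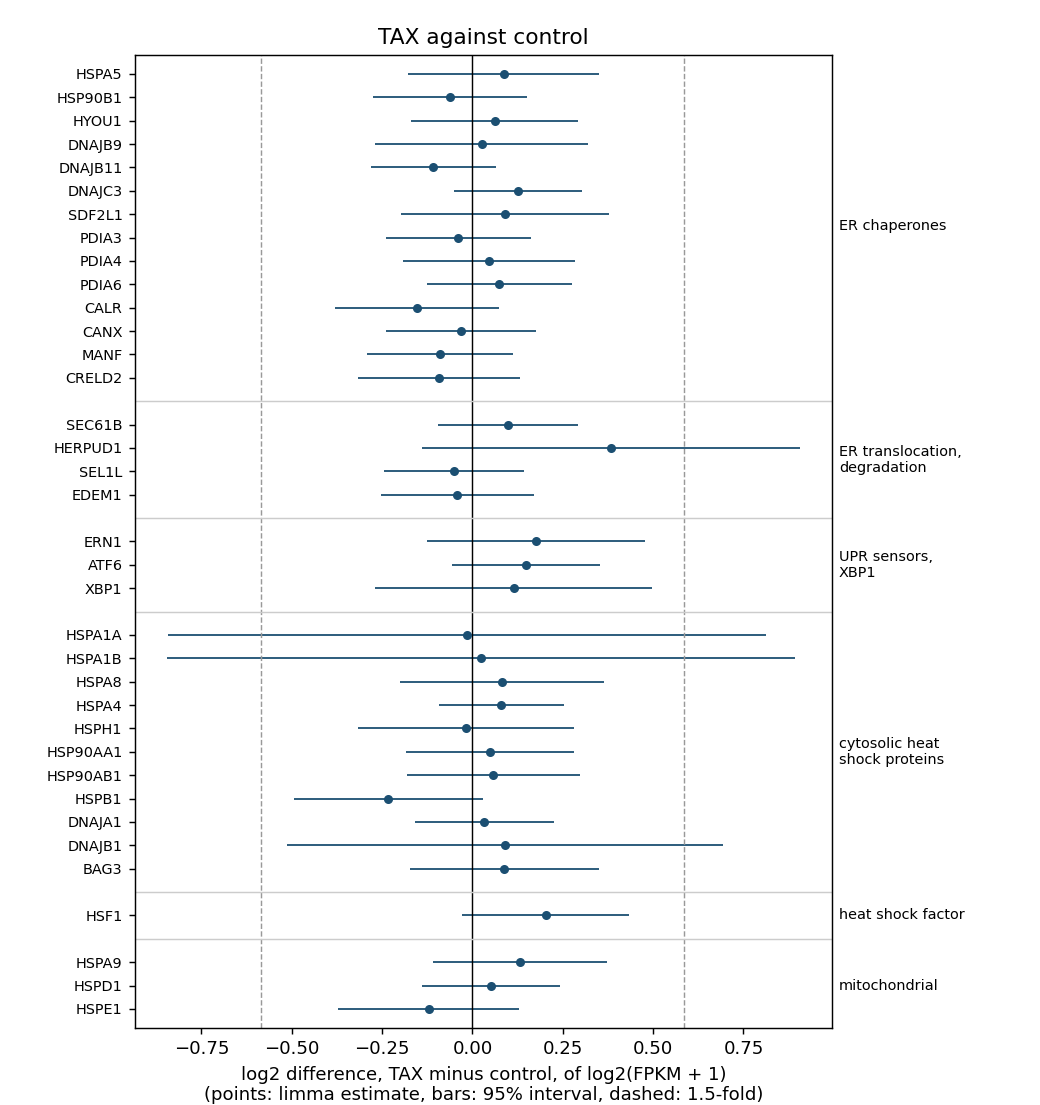
Log2 difference of each of the 36 members (TAX minus control, on log2(FPKM + 1), from limma), with bars for the 95% interval and dashed lines at 1.5-fold. The bars of all 36 members cross 0, and those of HERPUD1, HSPA1A, HSPA1B and DNAJB1 reach past a dashed line.

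The summed levels of the chaperones overlapped between the groups. The 36 members together made up 1.48% to 1.72% of the summed FPKM of a library, and control replicate 2 held the highest share. The 21 ER members took 0.637% to 0.743% and the 11 cytosolic members 0.647% to 0.809%. The ratio of the ER sum to the cytosolic sum was 0.997, 0.919 and 1.02 in control and 0.959, 0.929 and 0.951 in TAX, so the groups overlapped (exact two-sided permutation test, p = 0.4). With 3 libraries against 3, the smallest p of this test is 0.1. The median log2 difference was 0.045 for the ER members and 0.048 for the cytosolic members.

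Levels differed widely between members. The 2 cytosolic HSP90 genes were the most abundant, at a mean of 772 FPKM for HSP90AB1 and 760.5 FPKM for HSP90AA1 over the 6 libraries, ranks 29 and 30 of all genes tested. HSPA8, the constitutive cytosolic HSP70, followed at 426 FPKM. HSPA5, CALR and HSP90B1 had means of 379, 364 and 363 FPKM. Their ranges across the libraries overlapped, so the order of these 3 ER chaperones is not separated by their spread. DNAJB9 and the sensor ERN1 were the lowest members, at 4.59 and 3.72 FPKM, below the median of 9.75 FPKM over all genes tested.

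**Figure D2:**
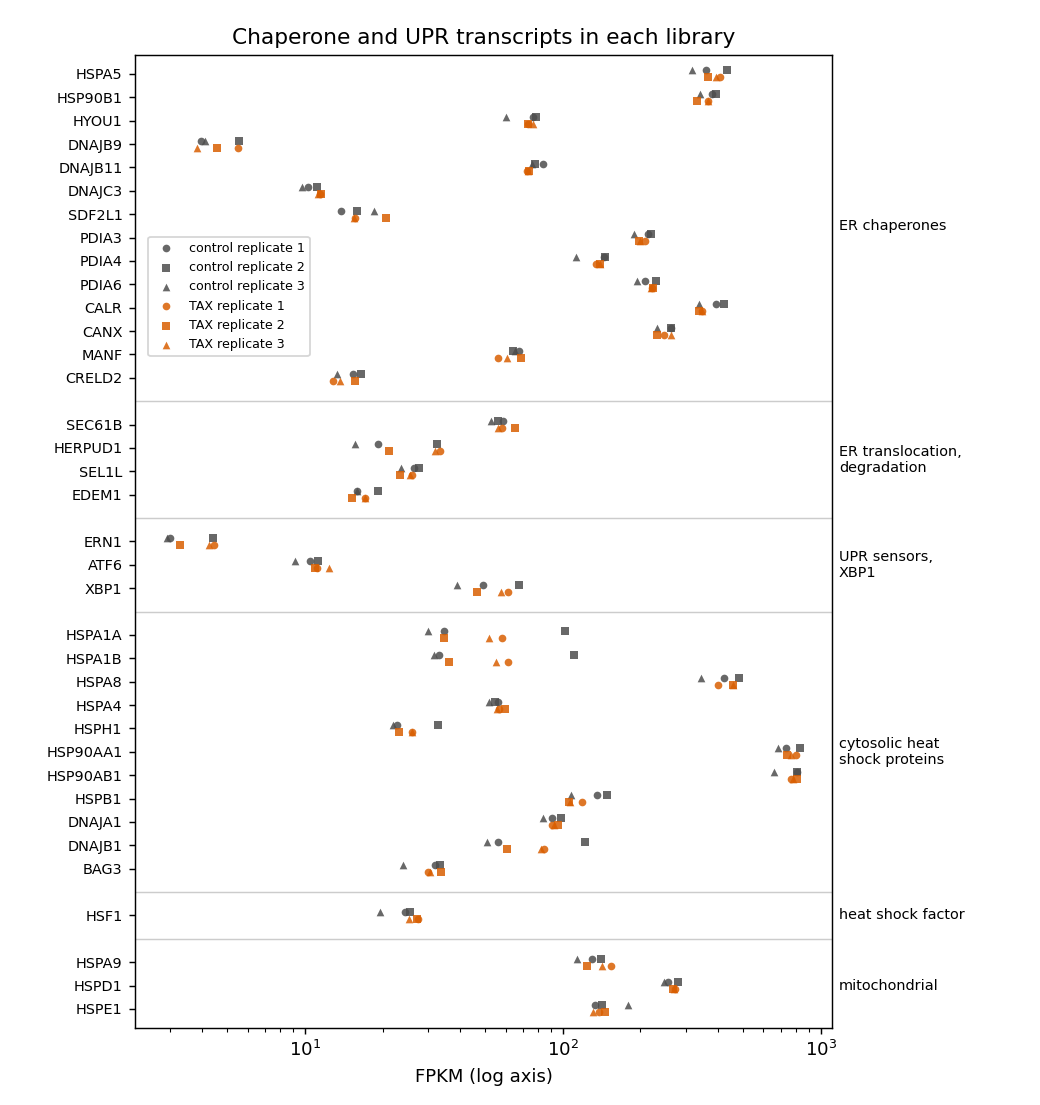
FPKM of the 36 members on a log axis in each of the 6 libraries, grey for control and orange for TAX, with circles, squares and triangles for replicates 1, 2 and 3. Levels run from about the 3.72 FPKM mean of ERN1 to the 772 FPKM mean of HSP90AB1, and the widest spread is in HSPA1A, HSPA1B and DNAJB1, where the grey square of control replicate 2 lies far to the right.

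Among the 14 ER chaperones and folding enzymes, 7 differences were above 0 and 7 below, with a median of -0.0031 on the log2 scale. HSPA5, the ER HSP70 that binds unfolded chains and holds the stress sensors inactive, was at 357.7, 432.6 and 316.6 FPKM in control and at 408.5, 366.6 and 391.9 FPKM in TAX. All 3 TAX values lay inside the control range. The difference was 0.087 ± 0.12 (SE, n = 3 per group, limma adjusted p = 0.818), and its 95% interval corresponds to 0.885-fold to 1.27-fold. HSP90B1 (GRP94), the HSP90 of the ER, was at 378.9, 394.3 and 339.3 FPKM in control and at 366.9, 332.1 and 366.6 FPKM in TAX. TAX replicate 2 was lowest and control replicate 2 highest, and the groups overlapped, with a difference of -0.061 ± 0.096 (limma adjusted p = 0.842).

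DNAJC3 and DNAJB11, both HSP40 co-chaperones of BiP, were the members whose groups did not overlap. DNAJC3 (P58IPK) was at 10.3, 11.2 and 9.73 FPKM in control and at 11.5, 11.5 and 11.3 FPKM in TAX. Every TAX library lay above every control library, by 1.10-fold in the means. The difference was 0.13 ± 0.079 (limma adjusted p = 0.608), and the exact permutation p was 0.1, the smallest possible. DNAJB11 (ERdj3) was at 83.6, 78.3 and 75.8 FPKM in control and at 72.3, 74.1 and 73.6 FPKM in TAX. Every TAX library lay below every control library, and the ratio of the means was 0.926. The difference was -0.11 ± 0.078 (limma adjusted p = 0.659; exact permutation p = 0.1). DNAJB11 shares 15.4% of its 100-base transcript windows with an annotated overlapping transcript, AC068631.2, so part of its reads may be divided between them. The third member of this family, DNAJB9 (ERdj4), a target of XBP1 that takes part in degradation, ran from 3.83 to 5.57 FPKM with its extremes in TAX replicate 3 and control replicate 2.

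The lectin chaperones calreticulin (CALR) and calnexin (CANX) hold glycoproteins during folding. CALR was at 393.4, 423.6 and 336.7 FPKM in control and at 347.6, 338.1 and 346.6 FPKM in TAX. The TAX values were close together and below control replicates 1 and 2, but above control replicate 3, so the groups overlapped. The difference was -0.15 ± 0.10 (limma adjusted p = 0.629), the lowest among the ER members. Without control replicate 3 it was -0.25 (limma adjusted p = 0.258), and without control replicate 2 it was -0.081 (limma adjusted p = 0.746). CANX ranged from 231.8 to 263.4 FPKM, with a difference of -0.032. The protein disulfide isomerases PDIA3, PDIA4 and PDIA6, which form and rearrange disulfide bonds, had differences of -0.039, 0.045 and 0.074. In all 3 genes control replicate 2 was highest and control replicate 3 lowest. HYOU1 (GRP170), the nucleotide exchange factor of BiP, lay between 60.5 and 78.4 FPKM with a difference of 0.062. SDF2L1, a partner of the DNAJB11 and BiP complex, had a difference of 0.089. MANF and CRELD2, small secreted proteins induced by ER stress, had differences of -0.089 and -0.092.

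Of the 4 genes of ER translocation and degradation, HERPUD1 had the largest estimate of the 36 members. HERPUD1 organises the ubiquitin ligase complex that clears misfolded ER proteins, and its window holds the ERSE-II printed above. It was at 19.3, 32.6 and 15.6 FPKM in control and at 33.4, 21.1 and 32.0 FPKM in TAX. Control replicate 2 was level with TAX replicates 1 and 3, and TAX replicate 2 was close to control replicate 1, so the groups overlapped. The difference was 0.38 ± 0.24 (limma adjusted p = 0.605), with a 95% interval from 0.907-fold to 1.88-fold. It was 0.67 without control replicate 2 and 0.17 without control replicate 3. SEL1L and EDEM1, which hand misfolded glycoproteins to the degradation machinery, had differences of -0.052 and -0.042. SEC61B, a subunit of the protein channel of the ER membrane, ranged from 52.6 to 65.1 FPKM with a difference of 0.098.

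The 2 sensors and XBP1 had differences above 0 in each case, as did 69.1% of all genes tested, and none passed the test. XBP1, the factor that IRE1 activates by splicing its mRNA, was at 48.9, 67.4 and 39.0 FPKM in control and at 61.5, 46.5 and 57.4 FPKM in TAX. The 3 TAX values lay inside the control range, and the difference was 0.11 ± 0.17 (limma adjusted p = 0.837). The gene values do not separate the spliced from the unspliced XBP1 mRNA. ERN1 (IRE1) was at 3.00, 4.41 and 2.92 FPKM in control and at 4.44, 3.29 and 4.25 FPKM in TAX, the same arrangement as HERPUD1, with a difference of 0.18 ± 0.14 (limma adjusted p = 0.673). ATF6, the membrane-bound sensor that is cut to release a transcription factor, ranged from 9.19 to 11.2 FPKM in control and from 10.9 to 12.4 FPKM in TAX, with a difference of 0.15 ± 0.093 (limma adjusted p = 0.606).

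Among the 11 cytosolic members, 8 differences were above 0 and 3 below, with none past the test. HSPA1A and HSPA1B, the stress-inducible HSP70 genes, lie next to each other on chromosome 6 (GRCh38, chr6:31815464-31817946 and chr6:31827735-31830255). HSPA1A was at 34.7, 102.3 and 30.1 FPKM in control and at 58.2, 34.6 and 51.8 FPKM in TAX. HSPA1B was at 33.2, 110.3 and 31.6 FPKM in control and at 61.2, 36.2 and 55.2 FPKM in TAX. In both genes control replicate 2 was the highest library by far, TAX replicates 1 and 3 were intermediate, and TAX replicate 2 was level with control replicates 1 and 3. The highest control was 3.40 times the lowest for HSPA1A and 3.50 times for HSPA1B. Within the TAX group these ratios were 1.68 and 1.69.

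The difference between the groups was -0.015 ± 0.37 for HSPA1A (limma adjusted p = 0.991) and 0.024 ± 0.39 for HSPA1B (limma adjusted p = 0.985). For HSPA1B the ratio of the mean FPKM was 0.872, opposite in direction to the log2 difference. The 95% interval ran from 0.558-fold to 1.75-fold for HSPA1A, which includes a rise as well as a fall of 1.5-fold. The open reading frames of the genes are 1926 bases long and identical at 1922 of them (99.8%), so reads can be assigned to either gene and the split between them is uncertain. Their sum depends little on that split. It was 67.9, 212.6 and 61.6 FPKM in control and 119.3, 70.8 and 107 FPKM in TAX (exact permutation p = 1). Against HSPA8, which cells express without stress, the sum was 16.2%, 44.1% and 17.9% in control and 30.0%, 15.6% and 23.4% in TAX.

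DNAJB1, the HSP40 that works with HSP70 and is itself a heat shock gene, had the same arrangement. It was at 56.3, 122.1 and 50.7 FPKM in control and at 84.6, 60.8 and 82.0 FPKM in TAX, with a difference of 0.090 ± 0.27 (limma adjusted p = 0.925). DNAJB1 overlaps exons of TECR on the opposite strand, and the strand setting of the counting is not given in the sources used here. HSPH1 (HSP105), an exchange factor of HSP70, was highest in control replicate 2 at 32.7 FPKM and between 21.9 and 26.1 FPKM in the other libraries. Its difference was -0.017. The other abundant members had narrower ranges, with the highest library at most 1.40 times the lowest. HSPA8, HSPA4, HSP90AA1, HSP90AB1 and DNAJA1 had differences between 0.032 and 0.082, and BAG3, an HSP70 co-chaperone of autophagy, of 0.088.

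HSPB1 (HSP27), a small heat shock protein that holds unfolded proteins without ATP, had the lowest estimate of the 36 members. It was at 135.8, 148.2 and 107.7 FPKM in control and at 118.4, 105.8 and 106.3 FPKM in TAX. TAX replicates 2 and 3 lay below every control library, and TAX replicate 1 lay above control replicate 3. The difference was -0.23 ± 0.12 (limma adjusted p = 0.535), with a 95% interval from 0.710-fold to 1.02-fold. Without control replicate 3 it was -0.36 (limma adjusted p = 0.155), and without control replicate 2 it was -0.14 (limma adjusted p = 0.609).

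HSF1, the transcription factor of the heat shock response, was at 24.4, 25.6 and 19.5 FPKM in control and at 27.4, 27.2 and 25.4 FPKM in TAX. TAX replicate 3 lay just below control replicate 2, and TAX replicates 1 and 2 lay above all controls. The difference was 0.20 ± 0.10 (limma adjusted p = 0.539). HSF1 activity is set mainly by its release from chaperones and by phosphorylation, which mRNA levels do not measure. HSF1 overlaps exons of DGAT1 on the opposite strand. Further members overlap exons of other genes in the same way, among them DNAJB9, CRELD2, CANX, HSP90B1 and HSP90AA1.

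In the mitochondria, HSPD1 (HSP60) and HSPE1 (HSP10) form the folding chamber and HSPA9 (mortalin) pulls proteins through the membrane. HSPD1 ranged from 247.7 to 278.8 FPKM and had a difference of 0.050. HSPA9 ranged from 113.4 to 153.7 FPKM with a difference of 0.13, and HSPE1 from 130.9 to 178.2 FPKM with a difference of -0.12. HSPD1 and HSPE1 did not share an order of libraries, although their proteins work as a pair: HSPE1 was highest in control replicate 3, where HSPD1 was lowest. The genes overlap in exons on opposite strands, and the strand setting of the counting is not given, so reads may be divided between them. HSPE1 shares 17.0% of its transcript windows with other annotated genes, mostly the HSPE1-MOB4 readthrough transcript.

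The members that varied most did so between libraries of the same group. On the log2 scale the within-group SD of HSPA1B and HSPA1A stood at the 99.7th percentile of all genes tested, DNAJB1 at the 99.4th, HERPUD1 at the 99.0th and XBP1 at the 97.9th. The median percentile was 89.3 for the cytosolic members and 59.0 for the ER members. DNAJB11, HSPA4, HSPD1 and DNAJC3 were the steadiest, at percentiles from 6.79 to 14.6.

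A shared set of 3 highest libraries recurred among the members, from variable ones such as HSPA1B to steady ones such as HSPD1. It was chosen for description after the values were seen and has no test. Control replicate 2, TAX replicate 1 and TAX replicate 3 were the 3 highest libraries in 13 of 36 members (36.1%), and in 13% of all genes tested. These members were the sensors and XBP1 (ATF6, ERN1, XBP1), HERPUD1, EDEM1 and HSPA5 of the ER, HSPA1A, HSPA1B, DNAJB1, HSPH1 and HSP90AA1 of the cytosol, and HSPA9 and HSPD1 of the mitochondria. After each library was rescaled to the same FPKM sum, the count was 14 of 36 members, against 17% of all genes. After centring on the library median it was 11 of 36, against 7.95% of all genes. The share of FPKM in the 13 mitochondrially encoded genes was 15.8%, 11.2% and 14.2% in control and 11.6%, 12.0% and 11.2% in TAX. It was lowest in the same 3 libraries, and its part in the pattern was not tested. The set holds libraries of both groups, so the groups had to overlap in these genes, and this overlap says nothing about TAX.

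**Figure D3:**
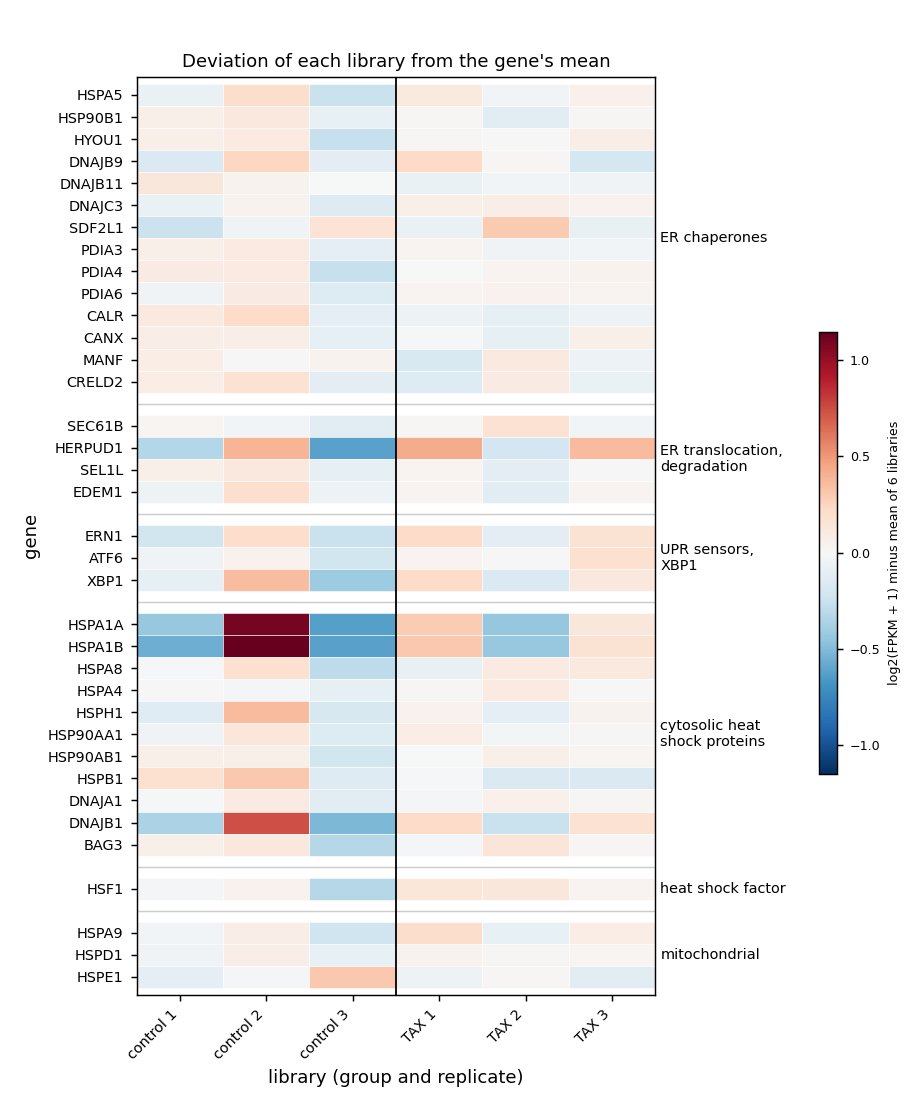
Deviation of log2(FPKM + 1) from the mean of the 6 libraries for the 36 members (rows) in each library (columns), red for higher and blue for lower. The column of control replicate 2, highest in 23 members, is mostly red, that of control replicate 3, lowest in 25 members on this scale and in 11 after rescaling, mostly blue, and TAX replicates 1 and 3 share the red cells of HERPUD1, HSPA1A, HSPA1B and DNAJB1.

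Left out in turn, control replicates 2 and 3 moved the estimates in opposite directions. They were picked because they held the highest and the lowest value in most members, so the direction of these shifts was largely set by the choice. The counts below describe this dependence and are no evidence of an effect of TAX. Without control replicate 2, 7 of 36 members were higher in TAX at an unadjusted p under 0.05, where 11.1% of all genes were. The 7 were HERPUD1 (log2 difference 0.67), HSPA1B (0.60), HSPA1A (0.53), DNAJB1 (0.48), ERN1 (0.33), XBP1 (0.32) and HSF1 (0.28), with limma adjusted p values from 0.201 to 0.358. Without control replicate 3, 3 of 36 members were lower at an unadjusted p under 0.05, where 5.59% of all genes were. The 3 were HSPB1 (-0.36), CALR (-0.25) and DNAJB11 (-0.14). In neither case did a member reach an adjusted p under 0.05. The median difference of the cytosolic members was 0.16 without control replicate 2 and -0.052 without control replicate 3, and that of the ER members was 0.10 and -0.067. The median of all genes tested was 0.078 and 0.0055 in these fits. With all libraries, the ER median was -0.0072 after quantile normalization and -0.013 after centring on library medians, and the cytosolic median was 0.0074 and -0.010. The median of all genes tested moved as well, to 0.0037 and -0.0034. After rescaling to the same FPKM sum, the ER median was 0.017 and the cytosolic median 0.019, where that of all genes tested was 0.032. The direction of the group medians therefore depended on the control library left out and on the scaling.

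**Figure D4:**
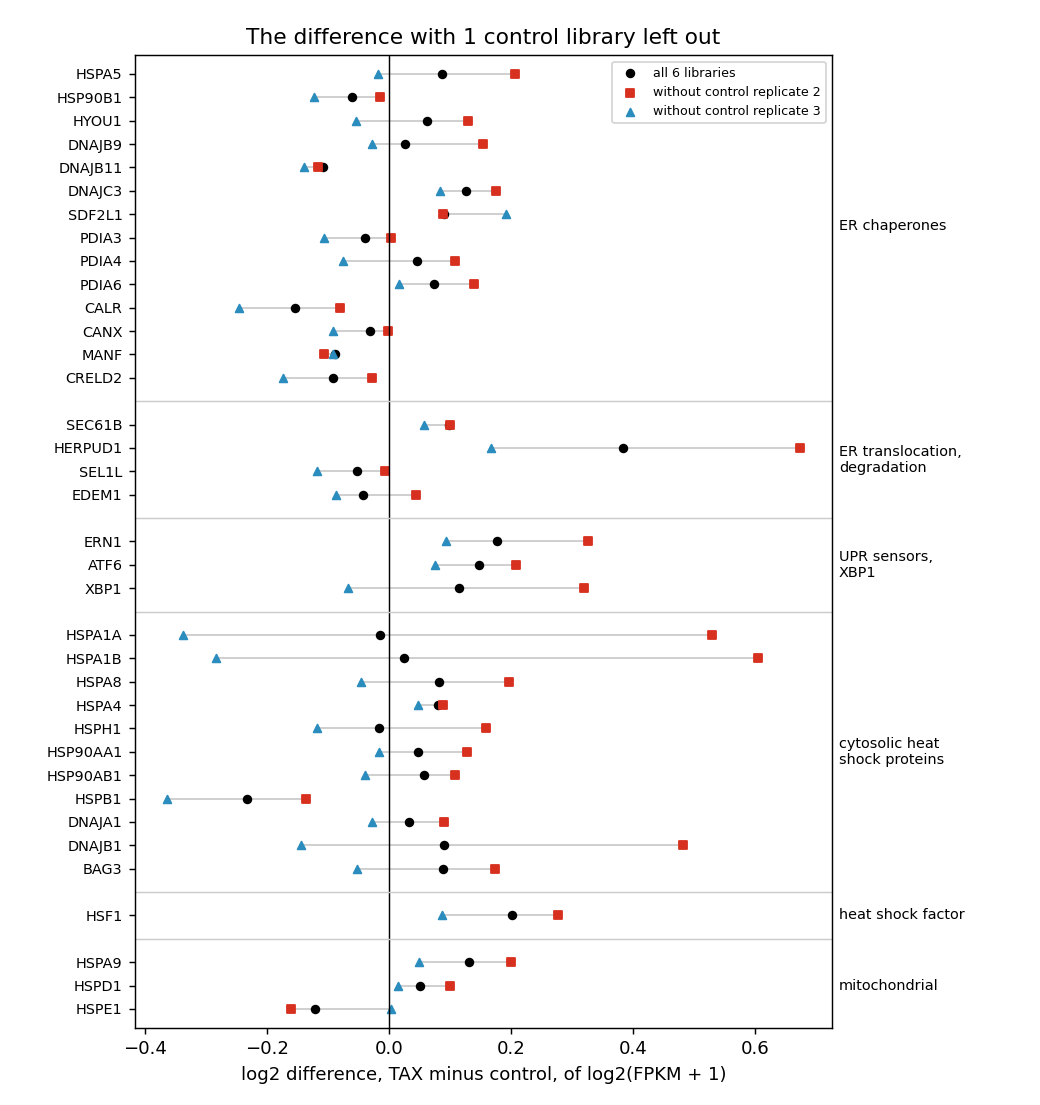
Log2 difference (TAX minus control) of the 36 members with all 6 libraries (black), without control replicate 2 (red squares) and without control replicate 3 (blue triangles). The red squares lie farthest to the right in HERPUD1 (0.67), HSPA1B (0.60), HSPA1A (0.53) and DNAJB1 (0.48), while the blue triangle of HSPA1A lies at -0.34.

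Other genes of protein folding were counted from 7 further lists with 127 symbols, of which 123 could be tested. None had an adjusted p under 0.05 in limma, and 7 were higher and 1 lower at an unadjusted p under 0.05, where 7.73% of all genes tested were higher and 2.41% lower. Their median difference was 0.063. Of the other ER folding genes, 1 of 21 was called at the unadjusted p, the disulfide isomerase TXNDC5 (0.20, adjusted p = 0.481), and the ER oxidase ERO1A followed (-0.19). Of 24 genes of ER translocation and degradation, 1 was called, SSR4 of the translocon-associated complex (0.52 ± 0.18, adjusted p = 0.367), and the segregase VCP followed (0.20). SSR4 was at 17.4, 24.9 and 19.2 FPKM in control and at 22.2, 38.1 and 30.4 FPKM in TAX, so the groups overlapped in control replicate 2 and TAX replicate 1. None of 12 genes of unfolded protein response control was called, with WFS1 (-0.21) and ATF4 (0.23) nearest.

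In the cytosol, none of 14 genes of the TRiC chaperonin and prefoldin was called, and TCP1, CCT4, CCT6A and CCT8 lay above and PFDN4 below all controls in every TAX library, 5 of 14 genes where 17.9% of all genes did not overlap. CCT4 (0.18) and PFDN4 (-0.18) had the smallest p of that list. Groups without overlap were not particular to it. Over the 123 genes, 20 lay above and 6 below all controls in every TAX library. Among the 12 HSP90 co-chaperones, 4 lay above and 0 below. Of 25 other HSP70, HSP40, small HSP and BAG genes, 2 were higher and 1 lower at the unadjusted p, the HSP70 exchange factor HSPBP1 (0.27, adjusted p = 0.350), the HSP40 protein DNAJA2 and, on the lower side, HSPB11 (-0.21). Of 12 HSP90 co-chaperones 2 were higher, SUGT1 (0.25) and UNC45A (0.17). Of 15 other mitochondrial chaperones and proteases 1 was higher at the unadjusted p, PHB1, listed as PHB (0.21), and DNAJA3 followed (0.21). Control replicate 2, TAX replicate 1 and TAX replicate 3 were the 3 highest libraries in 21 of the 123 genes, against 13% of all genes tested. Of these 21, 4 stress genes are given, named after their values were seen. HSPA6, an HSP70 gene that is nearly silent without stress, was at 0.877, 16.4 and 1.29 FPKM in control and at 6.85, 1.22 and 5.15 FPKM in TAX. DDIT3 (CHOP), the death-linked factor of the unfolded protein response, was at 26.9, 66.0 and 21.6 FPKM in control and at 49.5, 23.4 and 44.0 FPKM in TAX. Control replicate 2 was highest in both, and their limma adjusted p values were 0.947 and 0.919. PPP1R15A (GADD34), a phosphatase subunit that ends the translation block, and TRIB3, a target of ATF4 and CHOP, had adjusted p values of 0.725 and 0.564.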

How the data were processed

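RNA was isolated with Trizol, and libraries of DU145 cells were made with an mRNA preparation kit. For every library the authors deposited a separate gene table, whose values are treated as FPKM. The unit and the strand setting are not named there, and the submitters' processing notes list HISAT2 2.2.0, StringTie 2.1.2 and GRCh38. No counts were used, so depth and counting error are unknown. Samples were grouped by their labels (3 control, 3 TAX). A gene was tested if 3 or more of the 6 libraries had 1 FPKM or more. Under R 4.3.3, limma 3.58.1 (eBayes with a mean trend) was run on log2(FPKM + 1), with Benjamini-Hochberg adjustment over all 12359 genes. The pseudocount of 1 understates fold changes of low genes. Single values were compared with exact two-sided permutation tests (SciPy 1.17.1). The fit was tested on simulated data. Alternatives were another pseudocount, other filters, other scalings, no trend, a replicate block and leaving out each library.

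The members and lists were chosen with earlier results of these data known. Every member was accounted for. Members called, members with groups that did not overlap, and HSPA5, HSP90B1, XBP1, HSF1, HSPA1A and HSPA1B are given for every library, as are a few others whose values were widest, and from each further list the 2 genes with the smallest p. Gene positions are from GENCODE and upstream sequences from RefSeq, both on GRCh38.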

Additional observations from a re-analysis of the deposited data

How the results depend on the processing

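No member reached an adjusted p under 0.05 in limma under any of the 14 alternatives, where the smallest was 0.155, and the count at an unadjusted p under 0.05 was 0 with all libraries on the scale as deposited. Members lower at the unadjusted p numbered 3 with quantile normalization, 3 with centring on library medians and 3 after rescaling each library to the same sum (CALR, DNAJB11 and HSPB1 each time), against 5.79%, 6.59% and 4.2% of all genes. Rescaling also gave 1 higher member, HSF1, against 8.36% of all genes. Leaving out each library in turn gave 0 to 7 higher members, 7 without control replicate 2 and 1 without TAX replicate 2 (HERPUD1, against 5.54% of all genes), and 0 to 3 lower members, 3 without control replicate 3. The median difference of the ER members then ranged from -0.067 to 0.10 and that of the cytosolic members from -0.052 to 0.16. The cause was not tested.

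Of 504 single log2 differences under the alternatives, 42 changed sign, 13 of them outside the left-out libraries. Quantile normalization gave -0.0059 for HYOU1, -0.0062 for DNAJB9, -0.027 for PDIA4, -0.0072 for PDIA6, -0.047 for HSPA1B and -0.027 for DNAJA1. Median centring gave -0.032 for DNAJB9, -0.013 for PDIA4, -0.034 for HSPA1B, -0.010 for HSP90AA1, -0.026 for DNAJA1 and -0.0075 for HSPD1. Rescaling gave -0.0015 for HSPA1B. With a library left out, the range was -0.017 to 0.21 for HSPA5, -0.055 to 0.13 for HYOU1, -0.083 to 0.15 for DNAJB9, -0.040 to 0.19 for SDF2L1, -0.11 to 0.0040 for PDIA3, -0.076 to 0.11 for PDIA4, -0.091 to 0.014 for CANX, -0.087 to 0.045 for EDEM1 and -0.067 to 0.32 for XBP1. In the cytosol it was -0.34 to 0.53 for HSPA1A, -0.28 to 0.60 for HSPA1B, -0.046 to 0.20 for HSPA8, -0.12 to 0.16 for HSPH1, -0.017 to 0.13 for HSP90AA1, -0.039 to 0.11 for HSP90AB1, -0.027 to 0.091 for DNAJA1, -0.14 to 0.48 for DNAJB1 and -0.052 to 0.17 for BAG3, and for HSPE1 it was -0.21 to 0.0025.

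The replicate numbers did not pair the libraries: deviations of same-numbered libraries from their group means correlated at -0.12, -0.33 and -0.17 over 12359 genes. Between differently numbered libraries the correlations ran from -0.17 to 0.29. They were highest for control replicate 3 with TAX replicate 2 (0.29) and for control replicate 2 with TAX replicate 1 (0.28). The source of this structure was not tested. With a replicate block, 0 members had an adjusted or unadjusted p under 0.05 in limma. Over all genes, the 59 calls at an adjusted p under 0.05 became 26 with the block, 1 without a filter on low values, 95 with quantile normalization, 96 with median centring and 19 to 40 with a library left out. Read numbers were not given, so no floor or counting interval could be set for low members such as ERN1 and DNAJB9.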
